A study of Mus musculus with 3 samples.

Results

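Mitochondrial ribosomal protein genes were followed across 3 cultures of CT26.WT, a mouse colon carcinoma cell line: 1 exposed to recombinant mouse S100a8, 1 exposed to S100a9 and 1 control. The genes were taken by name, as every gene whose symbol in the array's probe annotation begins with Mrpl or Mrps followed by a number. This gave 76 genes on 156 probe sets, out of 18193 genes on 34945 probe sets with a single symbol. Of these, 47 are named Mrpl, for the large subunit, and 29 are named Mrps, for the small subunit. A further 4 probe sets that also carry the symbol of another gene were left out. All 76 members matched the RefSeq gene table by gene number, with 0 symbols changed.

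The mitochondrial ribosome, or mitoribosome, is the machine in the mitochondrial matrix that translates the few messenger RNAs of mitochondrial DNA into core subunits of the respiratory chain and ATP synthase. Its RNA comes from mitochondrial DNA, while its proteins are encoded in the nucleus, made in the cytosol and imported. Many of them descend from bacterial ribosomal proteins and others were added in the mitochondrial lineage. The small subunit holds the messenger RNA and decodes it, and the large subunit joins the amino acids and releases the new chain at the inner membrane. The names do not always give the place of the protein: those of Mrps18a and Mrps30 sit in the large subunit, and that of Mrps36 is described as part of the oxoglutarate dehydrogenase complex.

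Per the labels, all cultures were kept without serum for 12 h, and S100a8 or S100a9 was then present at 4 µg/ml for 24 h. S100a8 and S100a9 are calcium-binding proteins that myeloid cells release in inflammation. The control received saline by its description and bovine serum albumin by its title, with no time given for it. RNA from each culture went onto its own Affymetrix mouse expression array. With 1 array per group no test was possible, and a difference between groups cannot be told apart from one between arrays. Where 3 signals follow a gene's name without further words, they stand in the order S100a8, S100a9, control, and a pair of ratios gives S100a8 and then S100a9, each as log2 over the control.

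In a check of the cell type, Krt18, a keratin of simple epithelia, and Vim, the intermediate filament vimentin, were well detected. Krt18 read 1032 with S100a8 and 1236 with S100a9 against 1447 in the control. Krt8, Cdh1 and Vil1, other epithelial genes, lay below the floor on all 3 arrays, the floor being the median of all signals (76.0). Of 7 epithelial markers 4 and of 8 mesenchymal markers 7 were above it on each array. Among the mesenchymal ones, Pdgfrb (426, 476 and 808), Dcn (157, 243 and 296) and Pdgfra (150, 214 and 241) were lower with both proteins. Col3a1 (2417, 2816 and 2941) was also lower, while Col1a2 (7385, 7839 and 7467) was bright and nearly level. The part of these differences in the results was not tested. Of 6 macrophage and granulocyte markers 3 were above the floor. The summed signal of all 6 was 1034 with S100a8 and 952 with S100a9 against 743 in the control, a difference whose part in the results was not tested. Of these, Cd68 (422, 396 and 273), Csf1r (370, 313 and 267) and Lyz2 (117, 139 and 102) lay above the floor, and Ptprc, Itgam and Adgre1 below it. All 3 lymphoid markers lay above it, with Cd3e at 759, 613 and 686, Cd4 at 171, 134 and 133, and Cd8a at 121, 108 and 92, and their part in the results was not tested. Of 4 endothelial markers 2 were above the floor, and Pecam1 and Cdh5 were below it. Dim genes sat higher on the S100a8 array: in the lowest quartile of brightness the median log2 ratio to control was 0.14, against -0.012 for brighter genes, and the part of this in the results was not tested.

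The promoters of the members were searched for letters that known regulators of mitochondrial genes bind. NRF1 and GABPA, an ETS factor, are activators of many nuclear genes for mitochondrial proteins, and YY1 and SP1 are general factors that also bind such genes. RefSeq promoters of build GRCm38.p6, each running from 250 bases before to 50 bases after the start, were found for 67 members (73 promoters), and 5 short motifs were searched on both strands. The NRF1 letters GCGCATGCG were in 9.59% of member promoters, against 1.75% of all 32851 promoters and 3.54% of those of the compared genes. The ETS letters CCGGAAGT were in 16.4%, against 3.89% and 8.05%, and the YY1 letters AAGATGGCG in 11.0%, against 1.40% and 3.01%. The SP1 letters GGGGCGGGG (20.5%, against 11.4% and 21.2%) and CCAAT (39.7%, against 37.4% and 37.6%) were near the share of the compared genes. None of these motifs lies within another. In large subunit promoters 6 of 46 held the NRF1 letters, and in small subunit promoters 1 of 27. A match is a description of these letters and not a measured binding site. The median GC content was 58.7% in member promoters and 60.7% in those of the compared genes.

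The promoters of 7 members are shown over the 150 bases before the start, in lower case with the motif matches in capitals. Mrpl10 (chr11:97041431-97041580, plus strand) and Mrpl39 (chr16:84735246-84735395, minus strand) carry NRF1 letters, which in Mrpl39 match on both strands. Mrps22 (chr9:98601681-98601830, minus strand) and Mrpl51 (chr6:125192049-125192198, plus strand) carry ETS letters, and Mrps22 also SP1 letters. Mrpl36 (chr13:73330858-73331007, plus strand) carries YY1 letters. Mrpl41 (chr2:24975100-24975249, minus strand) and Mrpl20 (chr4:155802727-155802876, plus strand) are shown because they had the highest ratios to control, Mrpl41 with S100a9 and Mrpl20 with S100a8. Mrpl41 holds CCAAT letters there, and Mrpl20 none of the 5 motifs within these bases.
Mrpl10: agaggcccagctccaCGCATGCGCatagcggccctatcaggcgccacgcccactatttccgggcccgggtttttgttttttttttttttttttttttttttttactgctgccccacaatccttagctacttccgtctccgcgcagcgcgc
Mrpl39: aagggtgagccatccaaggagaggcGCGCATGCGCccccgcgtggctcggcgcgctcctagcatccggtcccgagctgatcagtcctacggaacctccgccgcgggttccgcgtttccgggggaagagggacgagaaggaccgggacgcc
Mrps22: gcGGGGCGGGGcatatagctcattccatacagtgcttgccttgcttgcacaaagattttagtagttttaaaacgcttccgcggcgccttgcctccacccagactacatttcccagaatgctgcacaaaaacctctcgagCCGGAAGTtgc
Mrpl51: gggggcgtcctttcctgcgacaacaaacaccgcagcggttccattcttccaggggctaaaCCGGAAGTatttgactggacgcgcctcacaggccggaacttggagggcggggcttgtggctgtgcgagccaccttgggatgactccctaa
Mrpl36: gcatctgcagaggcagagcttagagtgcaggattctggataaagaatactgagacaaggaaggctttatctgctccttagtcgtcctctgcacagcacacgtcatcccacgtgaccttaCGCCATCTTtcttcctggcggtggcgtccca
Mrpl41: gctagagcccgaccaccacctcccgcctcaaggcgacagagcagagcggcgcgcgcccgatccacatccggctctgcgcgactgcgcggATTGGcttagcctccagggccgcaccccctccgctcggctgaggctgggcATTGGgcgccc
Mrpl20: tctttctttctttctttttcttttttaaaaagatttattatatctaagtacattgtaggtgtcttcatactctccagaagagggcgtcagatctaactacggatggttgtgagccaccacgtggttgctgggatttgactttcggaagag

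In 25 of 67 (37.3%) another gene started on the opposite strand within 1000 bases upstream, against 20.1% of compared genes and 12.2% of all genes with a promoter. The pair Mrpl46 and Mrps11 joins a large and a small subunit gene, and the 39 bases between their starts (chr7:78783091-78783129, GRCm38.p6, plus strand) hold none of the 5 motifs.
Mrpl46 and Mrps11: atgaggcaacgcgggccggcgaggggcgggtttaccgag

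All 76 members had a mean signal above the floor. Each gene was read from its brightest probe set. The signals ran from 313 (Mrpl38) to 3734 (Mrpl51) on the S100a8 array, with a median of 1048, from 323 to 3816 on the S100a9 array (median 1037) and from 346 to 3453 on the control array (median 964). Members lay between the 40.4th and 94.8th percentile of brightness among the 11138 compared genes. Each count of members is set beside all compared genes, meaning those above the floor, and also beside the 6058 compared genes within the members' range of brightness.

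With S100a8 the mitoribosomal genes differed little from control, and more of them were above it than below. Of the 76 members, 49 (64.5%) were higher than control, against 52.5% of all compared genes and 46.2% of those in the brightness range. The median log2 ratio was 0.059 for the 47 large subunit genes (SD over genes 0.14) and 0.035 for the 29 small subunit genes (SD 0.13), with 0.012 for all compared genes and -0.016 in the brightness range. After median centring of the arrays 57 members were above control, and 60.7% of all compared genes. A log2 ratio of 0.32 was used as a mark of size. Mrpl20 alone was that far above control and 0 members that far below, against 9.48% and 8.01% of all compared genes and 3.57% and 7.82% of those in the brightness range. The ratios of the members spanned -0.29 to 0.32, a narrower spread than in the brightness range (SD 0.13 and 0.22).

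With S100a9 the differences were also small, and 55 members (72.4%) were higher than control, against 51.2% of all compared genes and 52.7% of those in the brightness range. The median log2 ratio was 0.087 for the large subunit (SD 0.15) and 0.058 for the small subunit (SD 0.11), against 0.0045 for all compared genes and 0.010 in the brightness range. Mrpl41, Mrpl49 and Mrps25 lay 0.32 or more above control and Mrpl15 that far below. That is 3 and 1 of 76 members, against 3.23% and 5.04% of all compared genes and 2.28% and 4.56% in the brightness range. The share above was thus near the background. Both proteins were set against the same control array, so their ratios are not independent.

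**Figure D1:**
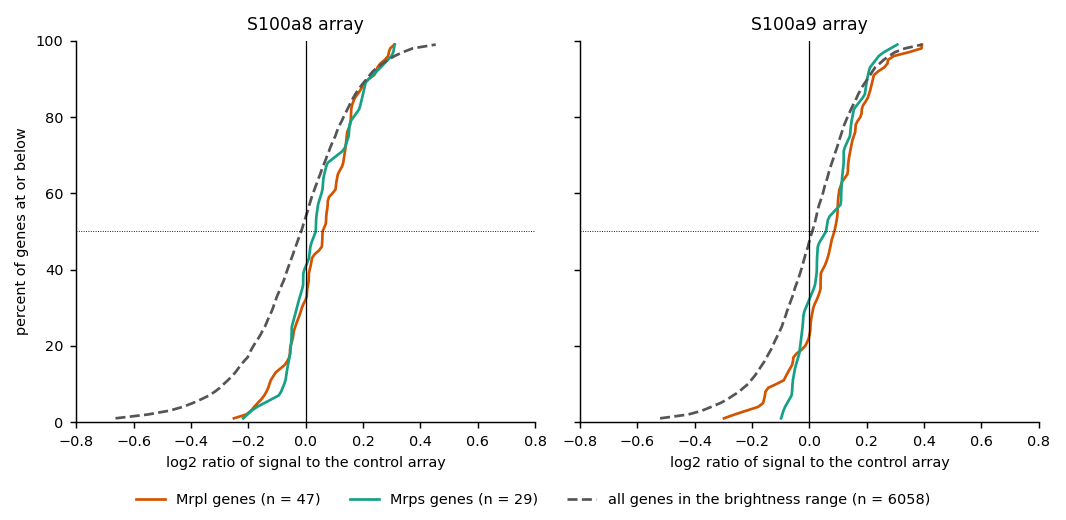
Cumulative percent of genes (vertical axis) by log2 ratio of signal to the control array (horizontal axis), for Mrpl genes, Mrps genes and the 6058 compared genes of like brightness (dashed), on the S100a8 and S100a9 arrays. At the 50% line the members' curves lie to the right of the dashed curve, by medians of 0.059 and 0.035 against -0.016 (S100a8) and 0.087 and 0.058 against 0.010 (S100a9), and their lower tails are shorter.

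The large and the small subunit overlapped. The median of the large subunit exceeded that of the small subunit by 0.024 with S100a8 and by 0.029 with S100a9. With S100a8 the quartiles were -0.036 and 0.14 for the large subunit and -0.048 and 0.15 for the small one. With S100a9 they were 0.0037 and 0.15, and -0.024 and 0.14. With S100a9 the difference of the medians turned to -0.0061 once Mrps18a and Mrps30 were counted with the large subunit and Mrps36 was left out, and to -0.0078 with the mean of all probe sets.

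The genes were also grouped by the origin of their proteins. Large subunit genes with a bacterial counterpart (29) had median ratios of 0.058 with S100a8 and 0.066 with S100a9, and the 18 specific to mitochondria had 0.074 and 0.098. In the small subunit the 17 with a bacterial counterpart had 0.043 and 0.058, and the 9 specific to mitochondria 0.036 and 0.12. The quartiles of these 4 groups overlapped with each protein. Mrps18a and Mrps30, whose proteins lie in the large subunit, were below control with both proteins.

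Among the large subunit genes, Mrpl41 had the highest ratio with S100a9. It encodes a protein found in mitochondrial ribosomes and not in bacterial ones. Its signal was 1064.5 with S100a8 and 1147 with S100a9 against 873 in the control, log2 ratios of 0.29 and 0.39. Its other probe set above the floor gave 0.26 with each protein, and the control was the lowest array on both probe sets.

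Mrpl49, a further large subunit protein without a bacterial counterpart, read 793 with S100a8 and 850 with S100a9 against 648 in the control (0.29 and 0.39). Its other probe set went the other way, at -0.082 and -0.028. The difference for Mrpl49 thus rests on a single probe set.

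Mrpl20, the counterpart of a bacterial large subunit protein, had 1963 with S100a8 and 1898 with S100a9 against 1567 in the control, log2 ratios of 0.32 and 0.28 on its 1 probe set. Mrpl12, whose protein forms the stalk that recruits translation factors, had 1906, 1882 and 1609 (0.24 and 0.23). Mrpl10, whose protein anchors that stalk, lay on the other side of control. Its signals were 594 with S100a8 and 604 with S100a9 against 671 in the control, log2 ratios of -0.18 and -0.15. The genes of these stalk partners thus had opposite signs with either protein, each on 1 probe set.

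Mrpl11, which encodes a protein at the base of the stalk, had 1086, 1004 and 912 (0.25 and 0.14). With S100a8 its 3 probe sets above the floor were all higher than control, from 0.14 to 0.25, while with S100a9 1 was higher and 2 were lower. Mrpl57, a small protein specific to mitochondria, had 1961, 2104 and 1744 (0.17 and 0.27).

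Several large subunit genes lay below control with both proteins. Mrpl4, a protein of the peptide exit tunnel, had 1047 with S100a8 and 1076 with S100a9 against 1283 in the control. At -0.29 it had the lowest ratio of all members with S100a8, and it was at -0.25 with S100a9. Mrpl38 had 313, 323 and 360 (-0.20 and -0.16), and its other probe set above the floor was at -0.24 and -0.22. Mrpl37 had 658, 650 and 729 (-0.15 and -0.16), and Mrpl45, which binds the ribosome to the inner membrane, had 947, 985 and 1037 (-0.13 and -0.075). Mrpl9, named after its values were seen, was below control on each of its 3 probe sets, from -0.30 to -0.055 with S100a8 and from -0.25 to -0.058 with S100a9.

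Mrpl15 shows how far a single probe set can lead. Its brightest probe set read 3170 with S100a8 and 2703 with S100a9 against 3409 in the control, the lowest ratio of any member with S100a9 (-0.33). Of its 7 probe sets above the floor, 5 were higher than control with S100a9, and their median over all 7 was 0.093. The mean over all its probe sets gave 0.030 and the brightest probe set without a cross-hybridisation suffix gave 0.13, both in the opposite direction.

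**Figure D2:**
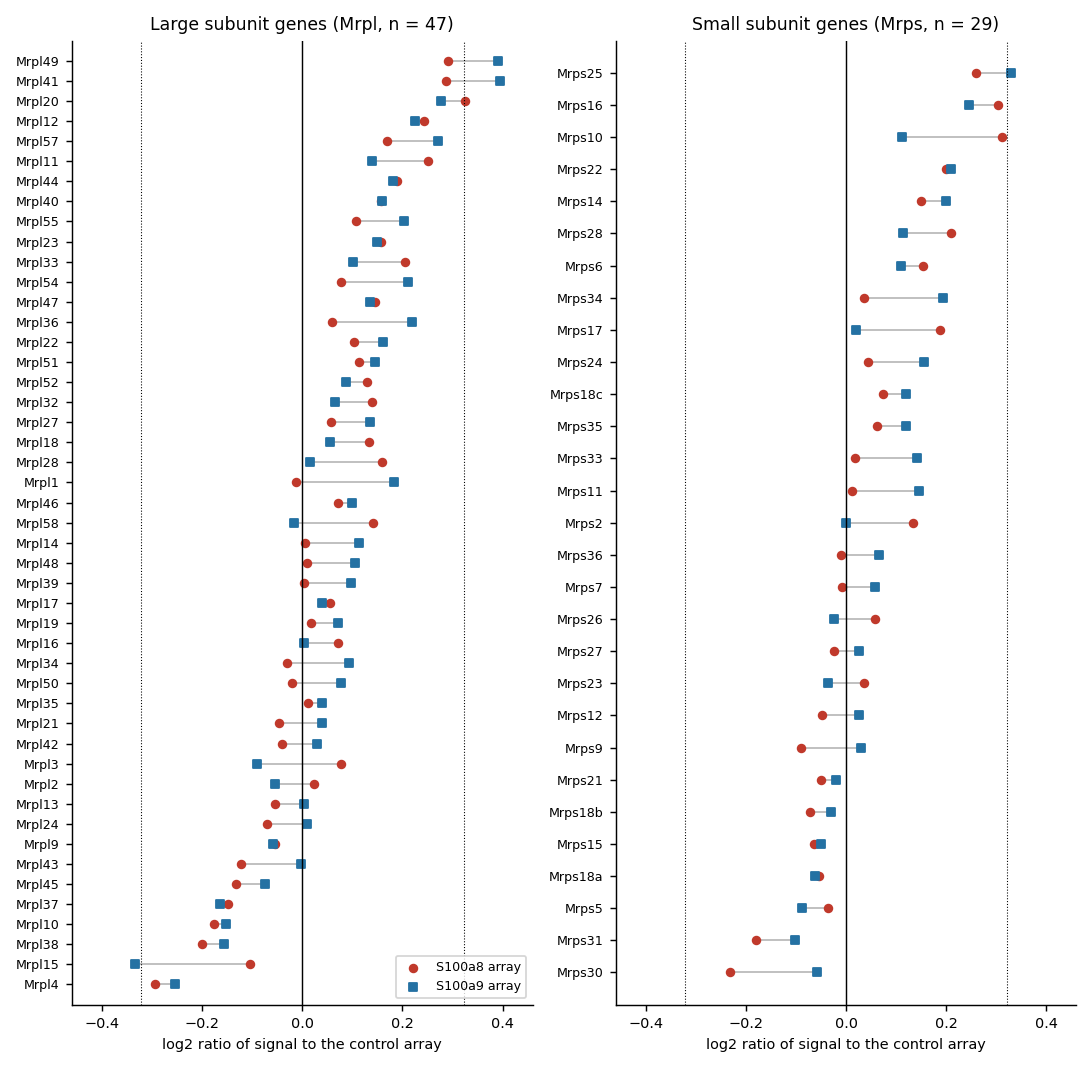
Log2 ratio of signal to the control array (horizontal axis) for each of the 47 Mrpl and 29 Mrps genes (rows), with S100a8 as circles and S100a9 as squares, 1 array each; the dotted lines mark log2 ratios of 0.32 and -0.32. Most points lie to the right of 0, and the 5 that reach a dotted line or pass it are Mrpl20 with S100a8, and Mrpl41, Mrpl49, Mrps25 and Mrpl15 with S100a9.

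In the small subunit, Mrps25 had the highest ratio with S100a9. Its product is a mitochondria-specific protein of the small subunit. The signals were 701 with S100a8 and 736 with S100a9 against 586 in the control, log2 ratios of 0.26 and 0.33, and its other probe set above the floor gave 0.31 and 0.35. Both treated arrays were above the control on each probe set.

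Mrps16, the counterpart of a bacterial small subunit protein, had 1799, 1728 and 1457 (0.30 and 0.25), and Mrps22, a mitochondria-specific member, had 1006, 1013 and 876 (0.20 and 0.21), each on 1 probe set. Mrps14, among the brightest of its subunit, had 3237, 3351 and 2918 (0.15 and 0.20). Its other probe set gave 0.42 and -0.021 on signals near the floor (113, 83 and 84). Mrps28 had 1099, 1029 and 950 (0.21 and 0.11) on 1 probe set. Mrps34, another protein specific to mitochondria, was at 0.035 with S100a8 and 0.19 with S100a9, from 1166, 1301 and 1138.

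Mrps10 was high with S100a8 only by its brighter probe set. That probe set read 919 with S100a8 and 799 with S100a9 against 740 in the control (0.31 and 0.11). The other gave -0.53 and -0.46 on signals near the floor (73, 80 and 110), and its S100a8 signal lay below the floor. Mrps2 likewise had 0.13 and -0.00041 on the brighter probe set and -0.28 and -0.23 on the other.

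Mrps30 had the lowest S100a8 ratio among the genes named Mrps. Its signals were 610 with S100a8 and 688 with S100a9 against 717 in the control (-0.23 and -0.058). Mrps31 had 539, 569 and 611 (-0.18 and -0.10). Mrps15 was at -0.064 and -0.050, and Mrps5 at -0.036 and -0.088, and in both genes at least 1 further probe set lay above control with each protein. Mrps9 was at -0.090 with S100a8 and 0.030 with S100a9.

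The 3 Mrps18 genes encode related versions of a single bacterial protein, and their ratios were of mixed sign. Mrps18a had 1038 with S100a8 and 1033 with S100a9 against 1078 in the control (-0.054 and -0.061). Mrps18b had 2148, 2210 and 2256 (-0.071 and -0.029). Mrps18c had 1880, 1940 and 1786 (0.074 and 0.12). Of these, only Mrps18c was above control.

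Among the brightest members, Mrpl51 had 3734 with S100a8 and 3816 with S100a9 against 3453 in the control (0.11 and 0.14), Mrpl35 had 3382, 3450 and 3356 (0.011 and 0.040), and Mrpl42 had 3082, 3236 and 3172 (-0.041 and 0.029). Mrps17 had 3711, 3303 and 3259 (0.19 and 0.019), and Mrps6 had 2528, 2453 and 2273 (0.15 and 0.11). Mrpl35 and Mrpl42 were thus nearly level over the arrays, while Mrps17 stood higher with S100a8 than on the other arrays.

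A further probe set is the 1 repeated reading of a gene on these arrays, and 35 members had one above the floor. The ratio of the next brightest differed from that of the brightest by a median of 0.10 with S100a8 and 0.099 with S100a9, and it went the same way as the brightest in 24 (68.6%) with S100a8 and in 23 (65.7%) with S100a9. For S100a9 over S100a8 it did so in 18 (51.4%), with a median difference of 0.13. All probe sets above the floor were higher than control in 17 and all lower in 4 with S100a8. With S100a9 these numbers were 14 and 4, and for S100a9 over S100a8 they were 9 and 5, with 21 members mixed. The largest disagreement between the brightest and the next was 0.84 with S100a8 and 0.57 with S100a9. Both were for Mrps10, whose next probe set lay near the floor. The other members had no such second reading.

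Besides those described above, several members had probe sets of opposite sign. With S100a8 the brightest and the next brightest gave -0.055 and 0.32 in Mrpl13, -0.032 and 0.28 in Mrpl34, -0.020 and 0.23 in Mrpl50, and 0.076 and -0.042 in Mrpl3. With S100a9 they gave 0.14 and -0.19 in Mrpl51, 0.15 and -0.10 in Mrps11, and -0.035 and 0.097 in Mrps23. For S100a9 over S100a8 they gave 0.054 and -0.14 in Mrpl19, 0.077 and -0.16 in Mrpl27, 0.11 and -0.11 in Mrps24, and 0.12 and -0.079 in Mrps9. For these genes the direction depended on the probe set that was read. The next brightest probe sets of Mrps11 (89, 79 and 85) and Mrpl27 (98, 88 and 74) were near the floor.

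**Figure D3:**
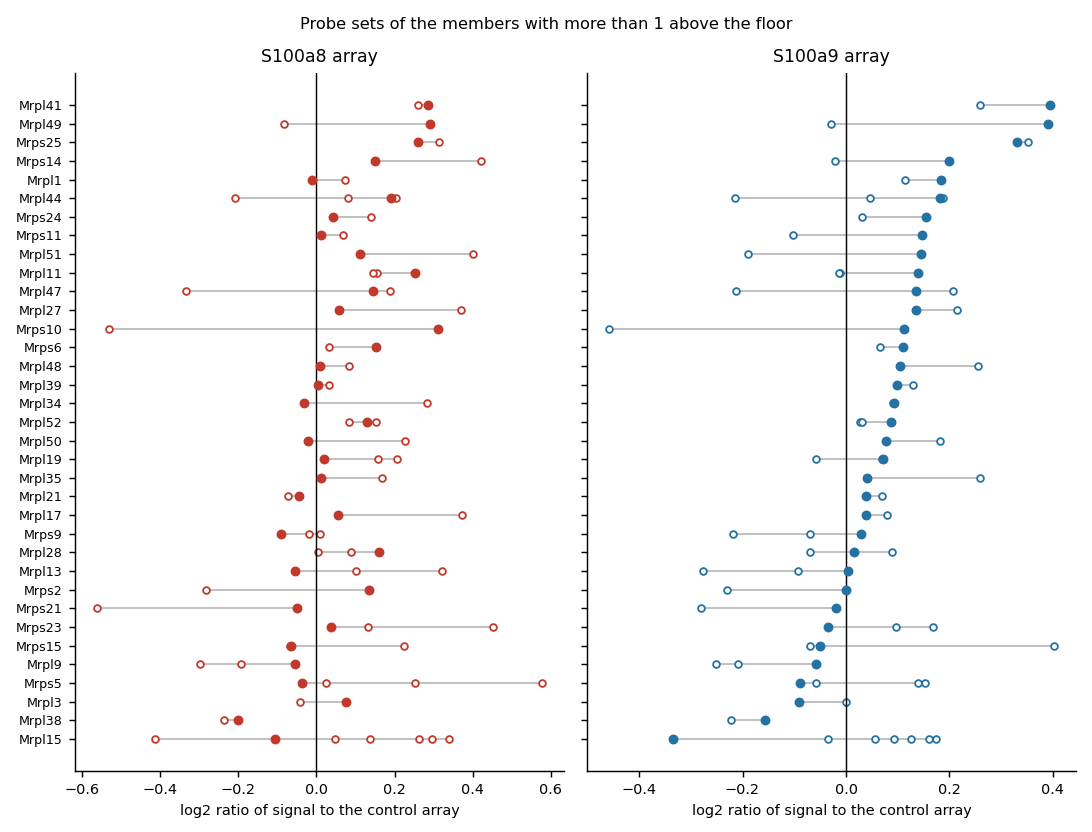
Log2 ratio of signal to the control array (horizontal axis) for every probe set above the floor of the 35 members with more than 1 (rows), with S100a8 in the left panel and S100a9 in the right; filled points are the brightest probe set and open points the others. Mrpl41 and Mrps25 have all points to the right of 0 in both panels, while those of Mrps10, Mrpl49 and Mrpl15 lie on both sides.

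Set against each other, the treated arrays differed little in these genes. Of the members, 47 (61.8%) were higher with S100a9 than with S100a8, close to the 63.2% of genes in the brightness range and above the 54.9% of all compared genes. After median centring the number was 39, and the share of all compared genes 45.1%. The median log2 ratio of S100a9 to S100a8 was 0.032 for the large and 0.045 for the small subunit, against 0.018 for all compared genes and 0.038 in the brightness range. The number of members with a ratio of 0.32 or more in size was 0 in either direction. Of all compared genes 2.0% were that far higher and 7.82% that far lower, and in the brightness range 1.06% and 1.78%.

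By their brightest probe sets, single members differed between the treated arrays by up to 0.23. Higher with S100a9 were Mrpl1 (679 with S100a8 and 777 with S100a9, 0.19), Mrps30 (0.17), Mrpl36 (1018 and 1138, 0.16), Mrps34 (0.16), Mrps11 (353 and 388, 0.14) and Mrpl54 (915 and 1005, 0.13). Lower with S100a9 were Mrpl15 (-0.23), Mrps10 (-0.20), Mrps17 (-0.17), Mrpl3 (2271 and 2024, -0.17), Mrpl58 (1026 and 919, -0.16) and Mrps2 (-0.13). Mrpl58 encodes a release factor built into the large subunit, which frees stalled chains. The next brightest probe set had the opposite sign in 4 of the members just named, at -0.17 in Mrps11, 0.073 in Mrps10, 0.042 in Mrpl3 and 0.053 in Mrps2. In Mrpl1 it was at 0.040 and in Mrpl15 at -0.10, and the others had no further probe set above the floor. Some dimmer probe sets of members differed by more than 0.32 between the treated arrays. Such probe sets were at -0.59 in Mrpl51 (415 with S100a8 and 276 with S100a9) and at -0.42 (1245 and 934) and -0.38 in Mrpl13. In the small subunit they were at -0.44 in Mrps14 (113 and 83) and -0.44 in Mrps5 (181 and 133). Only a probe set of Mrpl15 was that far higher with S100a9, at 0.38 (162 and 210).

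The rest of the mitochondrial translation system was read from lists chosen with earlier results of these data known. For the counts of each list, the share of all compared genes above control was 52.5% with S100a8 and 51.2% with S100a9. Of 5 mitoribosomal proteins with other names, 4 had a probe set, and all 4 were above control with both proteins, some by little. Chchd1, a small subunit protein, was at 0.18 with S100a8 and 0.29 with S100a9 (2924, 3159 and 2580). Dap3, a GTP-binding small subunit protein, was at 0.0073 and 0.082, Ptcd3 at 0.033 and 0.069, and Gadd45gip1 at 0.0015 and 0.14.

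Of 13 translation factors compared, 5 (38.5%) were higher than control with S100a8, with a median of -0.073. In the members' range of brightness the share was 46.2%. With S100a9 8 (61.5%) were higher, with a median of 0.020, against 52.7% in that range. Oxa1l, which inserts new chains into the inner membrane, had 376 with S100a8 and 432 with S100a9 against 488 in the control (-0.38 and -0.17) and was the 1 factor with a ratio to control beyond 0.32 in size. Mtif3, an initiation factor, was at -0.014 and 0.31, and Gfm2, which splits the ribosome after termination, at 0.16 and 0.30 on dim signals (117, 129 and 105). Mrrf, the recycling factor, was at 0.14 and 0.12, Mtif2 at -0.073 and -0.18 and Mtrf1l at -0.22 and -0.055.

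Mitoribosome assembly and ribosomal RNA modification genes had medians of 0.036 and 0.029, with 13 and 14 of 20 above control. Grsf1, an RNA-binding protein of mitochondrial RNA granules, read 1769 with S100a8 and 1076 with S100a9 against 1124 in the control, ratios of 0.65 and -0.062. This is its brightest probe set, and for genes outside the members further probe sets were not compared one by one. Mettl17 was at 0.33 and 0.16, Noa1 at 0.17 and 0.27, Mrm1 at -0.044 and 0.21, Nsun4 at -0.31 and -0.18, Mtg2 at -0.27 and -0.13 and Rpusd4 at -0.21 and -0.13. Of 16 mitochondrial aminoacyl-tRNA synthetases, which load the transfer RNAs, 10 were above control with S100a8 and 11 with S100a9 (medians 0.065 and 0.059). Lars2 was at 0.35 and 0.20, and Mars2, near the floor (93, 99 and 75), at 0.30 and 0.38. Wars2 was at -0.23 and 0.015, Ears2 at -0.084 and 0.24, Aars2 at 0.065 and -0.055, and Sars2, near the floor, at -0.049 and -0.44.

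Genes that maintain and transcribe mitochondrial DNA had medians of 0.034 and 0.028, with 12 and 13 of 20 above control. Tefm, the elongation factor of mitochondrial transcription, was at 0.27 and 0.37, and Polg, the DNA polymerase, at -0.37 and -0.31. Polg2, its accessory subunit, was at 0.27 and 0.24, Tfb2m, a transcription initiation factor, at -0.20 and -0.057, and Gabpb1, a partner of GABPA, at -0.14 and -0.22. Of the genes of the promoter factors, Nrf1 (-0.034 and 0.049), Gabpa (0.056 and -0.082) and Yy1 (0.040 and 0.10) were nearer control than Gabpb1 with S100a9. Genes of factors for the SP1 and CCAAT letters were not in this list.

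Respiratory chain genes, whose products join subunits made by the mitoribosome, had medians of like size. Complex I subunits had medians of 0.079 and 0.094 (25 and 30 of 33 above control), complexes III and IV 0.045 and 0.049 (15 of 22 with each protein) and ATP synthase 0.039 and 0.063 (12 and 13 of 17). Among complex I genes, Ndufa3 was at 0.22 and 0.30, Ndufb1 at 0.17 and 0.28, Ndufb6 at 0.29 and 0.073, Ndufv1 at -0.16 and -0.18, Ndufb11 at -0.066 and 0.0097, and Ndufa8 at -0.0088 and -0.075. Among those of complexes III and IV, Uqcr11 was at 0.15 and 0.25, Uqcrq at 0.10 and 0.22, Uqcrc1 at -0.25 and -0.18, Cox6a2 at 0.21 and 0.11, Cox8c at 0.30 and -0.12, and Cox7c, near the floor, at -0.35 and -0.17. Of ATP synthase, Atp5k was at 0.15 and 0.19, Atp5md at 0.11 and 0.15, Atp5j at 0.18 and 0.020, Atp5j2 at 0.18 and 0.070, Atp5b at -0.19 and -0.19, Atp5mpl at -0.050 and 0.10, and Atp5pb at 0.16 and -0.093. Protein import genes had 0.11 and 0.076, with 14 and 16 of 21 above control. Timm8b was at 0.21 and 0.37, Timm22 at 0.13 and 0.21, Timm9 at 0.25 and 0.041, Tomm40l at 0.21 and 0.18, Tomm34 at -0.20 and -0.18, and Tomm40 at -0.15 and -0.047. Cytosolic ribosomal proteins, with 24 and 20 of 43 above control, had medians of 0.011 and -0.0029, near those of all compared genes. Many of them were far brighter than any member, such as Rpl41 (20777, 20881 and 20536). They were not matched to the members in brightness, and the part of this in their ratios was not tested. Rps25 was at 0.25 and 0.19, Rpl39l at 0.21 and 0.080, Rpl14 at 0.20 and 0.19, Rpl12 at -0.30 and -0.37, and Rps6 at -0.20 and -0.21. The signals of Rpl14 (569, 566 and 496) and Rpl12 (439, 420 and 541) were far dimmer than those of many genes of this list.

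**Figure D4:**
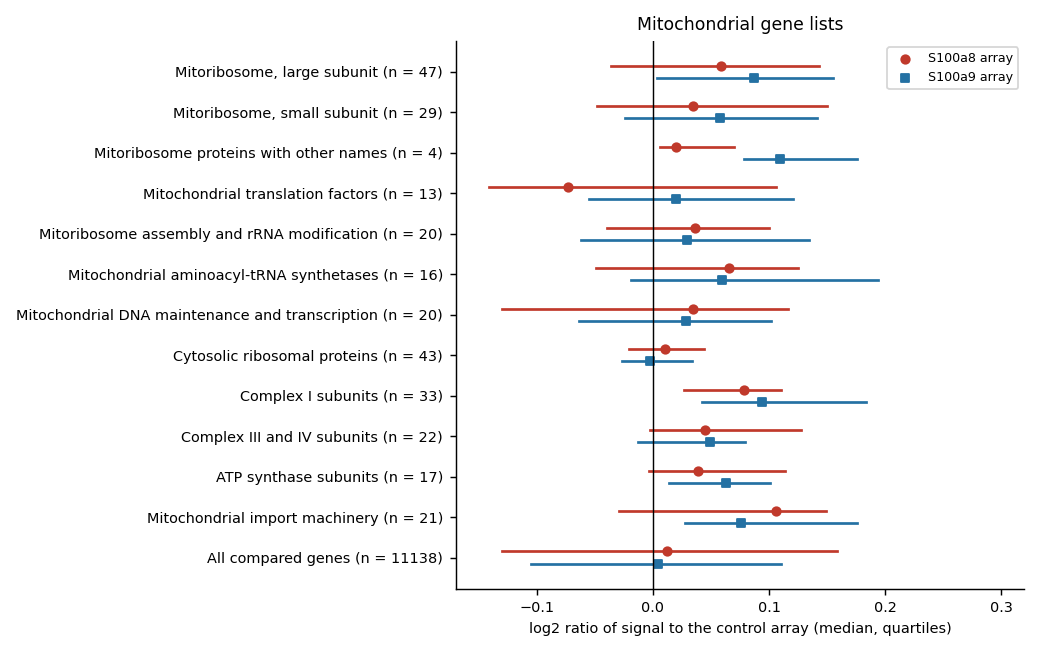
Median (points) and quartiles over genes (lines) of the log2 ratio of signal to the control array (horizontal axis) for the mitoribosomal genes, the other lists and all compared genes, with S100a8 as circles and S100a9 as squares. The mitoribosomal medians, 0.059 and 0.035 with S100a8 and 0.087 and 0.058 with S100a9, are of the size of those of complex I, while the cytosolic ribosomal proteins lie at 0.011 and -0.0029. Many cytosolic ribosomal genes were far brighter than any member, and the part of this in their ratios was not tested.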

How the data were processed

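RNA of 3 CT26.WT cultures was measured on 1 Affymetrix array each. The deposited intensity of a probe set is a MAS5 signal on a linear scale, as named in the submitters' processing notes. Which MAS5 version and scaling were used is not given in the sources used here. Control probe sets were left out, and the others were named from the platform annotation, which can be old. Intensities kept the deposited scale, were raised to the 50th percentile of all values (76.0) where lower, and were turned into log2. Each gene was read from its brightest probe set and compared if its mean exceeded that floor. No p-value was computed, and 1 array per group limits what can be said. Genes named in the text are the 5 highest and 5 lowest per subunit for each protein against control, the 3 highest and 3 lowest between the proteins, those beyond a log2 ratio of 0.32, the 3 brightest per subunit, the Mrps18 genes, members whose probe sets differ in sign by more than their median difference, and the extremes of each other list. Other genes with values were chosen after these were seen: Mrpl9, Nrf1, Gabpa, Yy1 and the upstream neighbours. Members, lists and rules were chosen with earlier results of these data known. The steps (Python 3.11.15, pandas 2.3.3) were tested on simulated data.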

Additional observations from a re-analysis of the deposited data

How the results depend on the processing

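The choices varied were the scaling (median centring, quantile normalization, or centring within 20 bins of brightness), the floor (30th or 65th percentile, or none with a pseudocount of 1), the filter on dim genes (none), the probe set read (averaging them, or preferring specific ones), the mark of size (1.5-fold) and the subunit given to Mrps18a, Mrps30 and Mrps36. The subunit medians against control stayed above 0 under each of these (0.058 to 0.10 and 0.031 to 0.077 with S100a8, 0.050 to 0.094 and 0.038 to 0.084 with S100a9). The median of all compared genes moved too. With S100a8 it was 0.054 after median centring, 0.038 after quantile normalization and 0.035 with the 30th percentile floor, where all members had 0.092, 0.070 and 0.050. After centring in bins it was 0, and the members had 0.053. With S100a9 it was 0.031 after quantile normalization, where the members had 0.084. For S100a9 against S100a8 the large subunit median turned to -0.0035 after median centring. The large minus small difference with S100a9 turned to -0.0078 when probe sets were averaged and to -0.0061 with the other subunit assignment. With S100a8, 5 members were 0.32 or more above control after median centring and 4 after quantile normalization, in place of 1, and 0 were 1.5-fold higher. With S100a9, 0 in place of 3 were that far above when probe sets were averaged and 0 at 1.5-fold; 0 in place of 1 were that far below with quantile normalization, averaged probe sets, specific probe sets, or 1.5-fold. Mrpl15 with S100a9 turned to 0.030 and 0.13 under the same choices of probe set, since its probe sets disagree. Averaging also took in probe sets below the floor on all arrays, whose ratios are 0. Mrpl41 and Mrps25 each had such a probe set and averaged 0.22 and 0.23 with S100a9. Mrpl49 had none and averaged 0.18. The cause of the remaining changes was not tested. Of 1242 values of named members, 1199 moved by less than the median difference between probe sets of a gene, 41 by more, and 2, both of Mrpl15 with S100a9, were beyond 0.32 in size and changed sign. Values nearer 0 could also change sign, such as Mrpl13 with S100a8 (-0.058 to 0.092). A change of floor, filter or pseudocount can hardly move members this bright, and a member with 1 probe set has no other to read. The count of 1199 is therefore no measure of stability. No replicate could be left out, and no paired analysis was possible because each group held 1 array.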

Other observations

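The ratios of members were set out by promoter motif, with no test. The 26 members with NRF1, ETS or YY1 letters had median log2 ratios to control of 0.050 with S100a8 and 0.061 with S100a9, and the 41 with a promoter but none of these letters had 0.072 and 0.093. With S100a8, 18 of the 26 and 26 of the 41 were above control, and with S100a9 18 and 31. Single motifs went different ways. With S100a8 the medians with and without a match were 0.0032 and 0.058 for NRF1 (7 members with a match), -0.0062 and 0.072 for YY1 (8), 0.0050 and 0.065 for SP1 (13), 0.075 and 0.036 for ETS (12) and 0.058 and 0.056 for CCAAT (26). With S100a9 they were 0.039 and 0.090 for NRF1, 0.034 and 0.087 for YY1, 0.11 and 0.072 for SP1, 0.094 and 0.066 for ETS and 0.043 and 0.10 for CCAAT.

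Some genes that start within 1000 bases upstream of a member, on the opposite strand, are set beside it here. Twnk, the helicase of mitochondrial DNA, starts 114 bases from Mrpl43 and was at 0.026 with S100a8 and -0.083 with S100a9, where Mrpl43 was at -0.12 and -0.0028. Klc4, a kinesin light chain gene, starts 139 to 155 bases from Mrpl2 and was at -0.37 and -0.18, where Mrpl2 was at 0.023 and -0.055. Ncapd2, a condensin subunit gene, starts 612 bases from Mrpl51 and was at -0.38 and -0.29, against 0.11 and 0.14 for Mrpl51. Pnpla7, a lysophospholipase gene, starts 933 bases from Mrpl41 and was at -0.55 and -0.45, against 0.29 and 0.39 for Mrpl41. Fau, a gene of a cytosolic ribosomal protein, starts 190 bases from Mrpl49 and was at -0.019 and -0.0017. Within the pair Mrpl46 and Mrps11 the ratios were 0.071 and 0.011 with S100a8 and 0.099 and 0.15 with S100a9. Some other pairs lay on opposite sides of control with both proteins, such as Hira (-0.15 and -0.15) and Mrpl40 (0.16 and 0.16). Some lay on the same side with both, such as the pairs of Eme1 and Psma2. Eme1, which starts 46 bases from Mrpl27, was at 0.15 and 0.22, against 0.058 and 0.13 for Mrpl27. Psma2, which starts 203 bases from Mrpl32, was at 0.065 and 0.14, against 0.14 and 0.066 for Mrpl32. All these pairs were named after their values were seen, so they do not stand for the rest.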
